A study of Bos taurus with 12 samples.

Results

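The genes described here are the nuclear-encoded subunits of the mitochondrial respiratory chain and of ATP synthase, measured in fat from steers of the Japanese Black (JB) and the Holstein (HS) breed. Members were the probe sets annotated with exactly 1 gene symbol beginning as the subunit names do: NDUF followed by A, B, C, S or V, the SDH genes, UQCR, COX numbered from 4 to 8, and ATP5. The rule found 109 probe sets for 84 genes, among 9155 genes with 1 symbol on the array. Each gene is given through the probe set with its highest mean signal, and that probe set passed the filter on dim signals for all 84 genes. Of the 84, 76 were counted as structural subunits and placed in a complex by the start of their names. These were 38 of complex I, 4 of complex II, 8 of complex III, 10 of complex IV and 16 of ATP synthase. By that rule NDUFA4 and NDUFA4L2 were counted in complex I, and whether each belongs there was not tested. Another 3 are the muscle isoforms COX6A2, COX7A1 and COX8B of complex IV. The last 5 share the names without being subunits, namely the assembly factors NDUFAF3, NDUFAF5, NDUFAF6 and NDUFAF8 and the ATP synthase inhibitor ATP5IF1.

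The respiratory chain of the inner mitochondrial membrane passes electrons from NADH (complex I) and succinate (complex II) through complex III to oxygen at complex IV. The proton gradient built on the way drives ATP synthase. A few core subunits of complexes I, III and IV and of ATP synthase are encoded by mitochondrial DNA, and all the others, including all of complex II, by nuclear genes such as those listed here. Several complex IV subunits exist as a form found in most tissues and a form of heart and skeletal muscle: COX6A1 and COX6A2, COX7A2 and COX7A1, COX8A and COX8B. White adipocytes, which store fat in a large droplet, hold few mitochondria, whereas oxidative muscle fibres are packed with them, and brown adipocytes also carry COX7A1 and COX8B.

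All animals were steers on energy-rich feeding, JB being a beef breed known for marbled meat and HS a dairy breed. Fat from inside the muscle (intramuscular, IMF) and from under the skin (subcutaneous, SCF) gave 4 groups of 3 samples: JB IMF and HS IMF with replicates 1 to 3, and JB SCF and HS SCF with replicates 4 to 6. From each sample total RNA was labelled and read on an Affymetrix bovine array. The labels give no age and do not say that samples came from separate animals, so the spread behind each p-value is that among these arrays and may be technical, and 3 arrays per group limit the precision. Signals below are the deposited intensities, which are linear and in arbitrary units, and signals of different genes cannot be set against each other. Differences are on the log2(signal + 16) scale after quantile normalization, with a standard error (SE) from limma, and passing means a p-value below 0.05 after Benjamini-Hochberg adjustment over all 16811 probe sets tested.

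The arrays were not equally alike. The median deposited signal ran from 77.5 to 88.6, except in HS IMF 3, where it was 58.8, and HS samples correlated with the rest of their group at a mean r of 0.805 to 0.915, against 0.944 to 0.962 in JB. The IMF samples also gave high signals for muscle genes. Of 24 skeletal muscle fibre markers, 19 were higher in IMF and 0 lower, and their summed signal ran from 97457 to 210748 in IMF, against 11861 to 36689 in SCF. Myoglobin (MB), the oxygen store of oxidative fibres, read 5095.5 to 13492 in IMF and 26.2 to 449.9 in SCF. Of 13 adipocyte markers tested, all 13 lay below 0 in IMF minus SCF with a median difference of −0.87, and 1 (SCD, a fatty acid desaturase) passed. Their summed signal, over 14 genes, was 32609 to 85880 in IMF and 80288 to 118229 in SCF. None of the adipocyte markers was at 0 in any sample, and ADIPOQ, the adipokine adiponectin, read 213.5 to 2303 in IMF. All 10 macrophage markers tested were lower in IMF, and 7 of 9 smooth muscle markers were higher. None of 6 endothelial or 5 erythroid markers passed, and 1 of 7 fibroblast markers was lower. Among all probe sets tested, 4.66% passed as higher in IMF and 6.33% as lower. What part these mixtures play in the differences below was not tested, and in whole tissue fewer cells of a type cannot be told apart from less RNA per cell.

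The comparison of depots over both breeds is the one the series design names for IMF and SCF. The muscle isoforms COX6A2 and COX7A1 passed as higher in IMF, while none of the 76 structural subunits did. The third muscle isoform, COX8B, did not pass through its brighter probe set. Of all 84 genes 4 passed, which is 4.76%, against 11.0% of all probe sets tested (4.66% higher and 6.33% lower in IMF). The 2 that passed downward were COX8A and COX7A2L, both counted in complex IV. In the values as deposited 579 of all probe sets were higher and 1318 lower, against 784 and 1064 after normalization, and the 4 members called were then COX6A2, COX7A1, COX8A and NDUFB3.

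COX6A2, the muscle form of subunit 6A, had signals of 653, 524 and 887 in JB IMF, 1306, 238 and 804 in HS IMF, 8.76, 2.35 and 27.1 in JB SCF and 3.8, 19.8 and 9.12 in HS SCF. Every IMF sample lay above every SCF sample, as for 3.11% of all probe sets, and the SCF signals were near the bottom of the array's scale. The difference was 4.76 ± 0.38 (SE), a 27.2-fold difference of signal + 16 (limma, adjusted p = 9.56e-06). Because the SCF signals were about as small as the pseudocount, the fold depends on it, and with a pseudocount of 1 the difference was 6.19. Within JB the difference was 4.61 ± 0.54 (SE), adjusted p = 4.18e-04 by the same limma fit, and within HS it was 4.91 ± 0.54 (SE), adjusted p = 3.24e-04. Through the brightest probe set of each gene, COX6A2 was the only one of the 84 that passed within either breed. Of all probe sets 3.07% passed in JB and 3.32% in HS.

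COX7A1, the muscle form of subunit 7A, had signals of 2047, 1602 and 2498 in JB IMF, 2726, 818 and 3245 in HS IMF, 750.1, 584 and 451 in JB SCF and 754, 771 and 648 in HS SCF. Unlike COX6A2 it was clearly present in SCF. HS IMF 2, at 818, lay just above the highest SCF sample at 771, and the other 5 IMF samples lay at 1602 or more. The difference was 1.73 ± 0.32 (SE), or 3.31-fold (limma, adjusted p = 0.00543). Within the breeds it missed the threshold in the limma fit, at 1.83 ± 0.45 (SE), adjusted p = 0.0526 in JB and 1.62 ± 0.45 (SE), adjusted p = 0.0756 in HS. HS IMF 2 also had the lowest summed muscle marker signal of the IMF samples (97457), and without it COX7A1 passed in both breeds, with 2.28 and adjusted p = 0.000805 in HS and 1.83 and adjusted p = 0.00146 in JB. In JB it also passed without HS IMF 3 (adjusted p = 0.0267), since all samples share 1 estimate of the spread.

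COX8B, the muscle form of subunit 8, is represented by a pair of probe sets that disagreed. The brighter one had signals of 953, 1116 and 953 in JB IMF, 1193, 716 and 487 in HS IMF, 1276, 1394 and 1106 in JB SCF and 1113, 1545 and 1555 in HS SCF. These ranges overlapped and IMF was lower on average, with a difference of −0.41 ± 0.17 (SE), adjusted p = 0.138 in the limma fit. The dimmer one had signals of 1199, 1859 and 1823 in JB IMF, 2235, 468 and 1586 in HS IMF, 319, 237 and 68.5 in JB SCF and 119, 206 and 242 in HS SCF. Here every IMF sample lay above every SCF sample, and the difference was 3.00 ± 0.42 (SE), or 7.98-fold (limma, adjusted p = 8.09e-04), with 3.12 ± 0.59 (SE) in JB (adjusted p = 0.0132) and 2.88 ± 0.59 (SE) in HS (adjusted p = 0.0231). Within JB the dimmer probe set missed the threshold without JB IMF 3 (3.03, adjusted p = 0.0719) or without JB SCF 6 (2.56, adjusted p = 0.0603). Within HS it missed it without HS IMF 3 (2.54, adjusted p = 0.0871), HS SCF 4 (2.64, adjusted p = 0.0629), HS SCF 5 (2.93, adjusted p = 0.0594) or HS SCF 6 (3.07, adjusted p = 0.0634). Which of the probe sets measures the COX8B transcript was not tested.

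**Figure D1:**
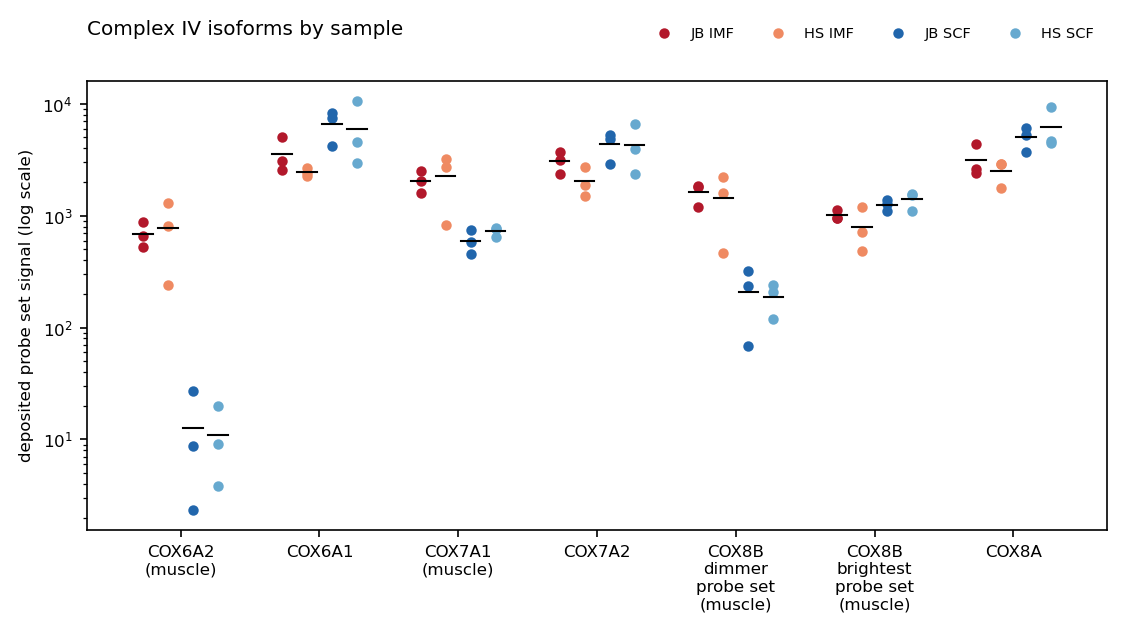
Deposited signal (log axis) of the 3 muscle isoforms of complex IV and their common counterparts, 1 point per sample by group, with the group mean as a bar. COX6A2, COX7A1 and the dimmer COX8B probe set lie higher in all 6 IMF samples than in the 6 SCF samples, while the brighter COX8B probe set, COX6A1, COX7A2 and COX8A do not.

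Of the common counterparts, COX8A and COX7A2 were lower on average in IMF, and COX6A1 had probe sets of opposite sign. COX8A, subunit 8 of most tissues, had signals of 2615, 4383 and 2421 in JB IMF, 2871, 2917 and 1773 in HS IMF, 5308, 6062 and 3721 in JB SCF and 4605, 4496 and 9418 in HS SCF. The depots overlapped, since JB IMF 2 exceeded JB SCF 6. Its difference was −0.81 ± 0.22 (SE), so that SCF was 1.75-fold higher (limma, adjusted p = 0.0348). The call was lost, at adjusted p of up to 0.102, when any of JB IMF 1, JB IMF 3, JB SCF 4, JB SCF 5, HS IMF 3 or HS SCF 6 was left out. Each of those omissions left 2 members called, COX6A2 and COX7A1. COX7A2 had a difference of −0.55 ± 0.24 (SE), adjusted p = 0.162 in the limma fit, and its signals ran from 1502 to 3726 in IMF and from 2357 to 6657 in SCF.

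COX7A2L, a relative of COX7A2 known to join complexes III and IV into supercomplexes, had signals of 1130.2, 1555 and 1220.4 in JB IMF, 1107, 1260.0 and 488 in HS IMF, 1771, 2061 and 1809 in JB SCF and 1626, 1593 and 2476 in HS SCF. It was the only structural member whose depots did not overlap, all 6 IMF samples lying below all 6 SCF samples (3.13% of all probe sets were lower in IMF in this way). Its difference was −0.62 ± 0.18 (SE), so that SCF was 1.54-fold higher (limma, adjusted p = 0.0474), which is close to the threshold. The call was lost in 16 of 22 other settings, with adjusted p of up to 0.126, among them the omission of any sample other than JB IMF 2 or HS IMF 2.

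COX6A1, the common form of subunit 6A, again had probe sets that disagreed. Its brighter one gave −0.84 ± 0.29 (SE), adjusted p = 0.0854 in the limma fit, with signals from 2256 to 5032 in IMF against 2948 to 10491 in SCF. It passed without JB IMF 2 (adjusted p = 0.0456) and without HS SCF 4 (−1.03, adjusted p = 0.0321). The dimmer one gave 0.87 ± 0.27 (SE), adjusted p = 0.0577, with signals from only 61.6 to 213 in IMF against 29.2 to 81.9 in SCF. It passed upward without HS IMF 2 (1.08, adjusted p = 0.0113) and without HS SCF 6 (1.01, adjusted p = 0.0494). No direction can be given for COX6A1 that holds for both.

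The ratio of each muscle form to its common form was then compared between the 6 IMF and the 6 SCF samples with an exact two-sided permutation test, adjusted over the 4 pairs computed. The smallest p this design allows is 0.002165. The log2 ratio of COX6A2 to COX6A1 was −2.09 ± 0.95 (SD, n = 6) in IMF and −7.70 ± 0.84 in SCF, a difference of 5.61 with the smallest possible p, 0.002165 (exact test, adjusted p = 0.004329). Through the dimmer COX6A1 probe set the difference was 3.89 with the same exact p, and with a pseudocount of 1 it was 7.04, so the direction holds in both and the size does not. The ratio of COX7A1 to COX7A2 was −0.34 ± 0.82 in IMF and −2.62 ± 0.54 in SCF, a difference of 2.28 with the same exact p of 0.002165 (adjusted p = 0.004329). For COX8B over COX8A the difference through the brighter probe set was 0.39 (exact p = 0.04978, adjusted p = 0.04978), and through the dimmer one it was 3.80. With the brighter probe set the exact p rose above 0.05, to at most 0.0974, without any of JB IMF 1, JB IMF 3, JB SCF 4, JB SCF 5, HS SCF 4, HS SCF 6, HS IMF 1 or HS IMF 3. The fourth pair, SLC25A4 over SLC25A5, is that of the ADP/ATP carriers of muscle and of most tissues, which exchange the product of ATP synthase across the inner membrane. It differed by 1.07 (exact p = 0.02814, adjusted p = 0.03752), and by 0.84 (exact p = 0.0563) without JB SCF 6. Through the dimmer SLC25A5 probe set it differed by 2.44 (exact p = 0.00433), since that probe set was at −0.97 between the depots and the brighter one at 0.40. Such a ratio shows unequal change of its genes and not which of them changed.

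The 76 structural subunits as a whole showed a small depot difference. Their median was −0.04, beside −0.06 over all probe sets tested, and 31 of 76 (40.8%) lay above 0, beside 44.5% of all. The differences ran from −0.84 (COX6A1) to 0.61 (ATP5MC1), and for 69 of the 76 the 95% interval lay within 2-fold in either direction. Without HS IMF 2 the median was 0.07 and without HS SCF 6 it was 0.05. By complex the medians were 0.03 in complex I, −0.10 in complex II, −0.12 in complex III, −0.21 in complex IV and −0.06 in ATP synthase.

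**Figure D2:**
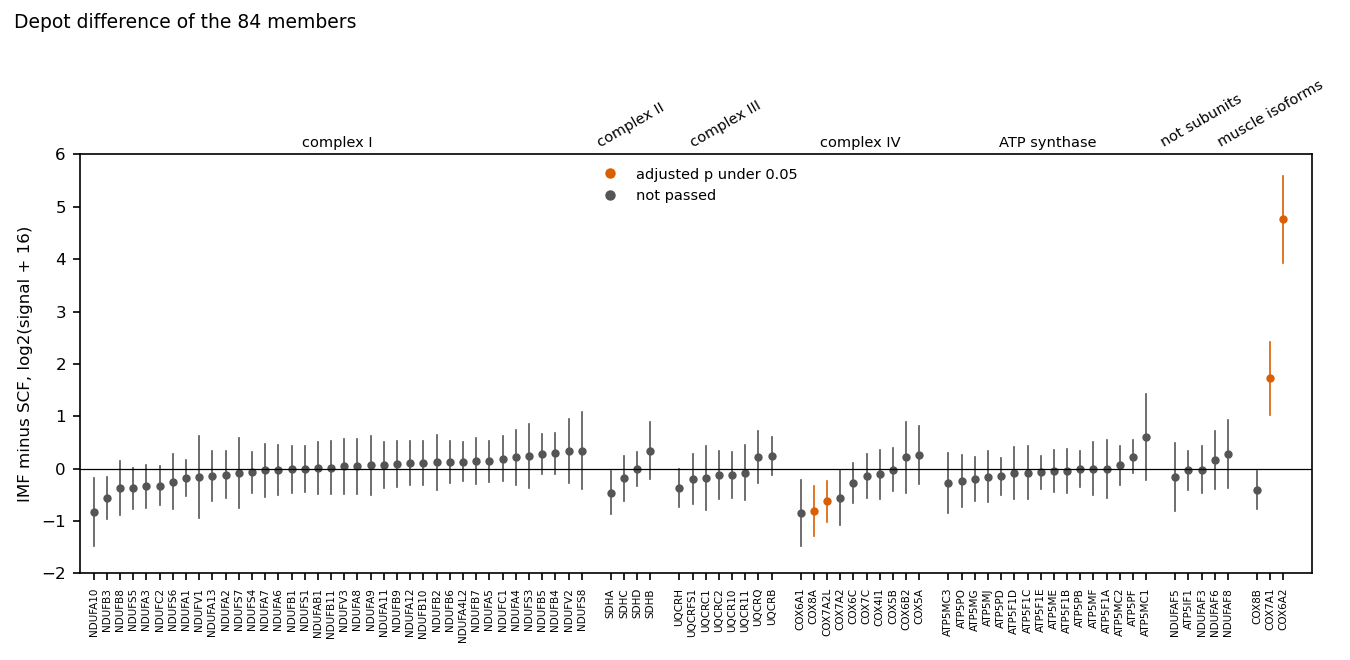
Difference between IMF and SCF over both breeds for each of the 84 genes, in log2(signal + 16), with its 95% interval, sorted within complex. Genes past an adjusted p of 0.05 are orange: COX6A2 (4.76) and COX7A1 (1.73) above 0, and COX8A (−0.81) and COX7A2L (−0.62) below it. The other genes did not pass, and their differences run from −0.84 (COX6A1) to 0.61 (ATP5MC1).

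In complex I none of 38 genes passed, and 21 lay above 0. The 3 with the smallest p were all below 0. NDUFB3, an accessory subunit of the membrane arm, differed by −0.56 ± 0.18 (SE), adjusted p = 0.0705 in the limma fit, with signals from 1541 to 3808 in IMF against 3004 to 5393 in SCF. NDUFA10, another accessory subunit of the membrane arm, differed by −0.82 ± 0.30 (SE), adjusted p = 0.0981, and its highest signal by far, 3172, was that of HS SCF 6. NDUFS5 differed by −0.37 ± 0.18 (SE), adjusted p = 0.21. At the other end stood NDUFS8, an iron-sulfur subunit, at 0.34 ± 0.34 (SE). Its signal was 3254 in HS IMF 3, far above the 741 to 1394 of the other IMF samples.

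Complex II, which is also the succinate dehydrogenase of the citric acid cycle, has only 4 subunits. SDHA, the flavoprotein that oxidizes succinate, had signals of 2743, 3463 and 2177 in JB IMF, 2548, 1888 and 1555 in HS IMF, 4089.5, 3978 and 2606 in JB SCF and 3078, 3143 and 5209.9 in HS SCF. The depots overlapped, and the difference was −0.46 ± 0.19 (SE), adjusted p = 0.14 in the limma fit. SDHB, the iron-sulfur subunit that takes electrons from SDHA, went the other way without passing, at 0.35 ± 0.25 (SE), adjusted p = 0.399, and it passed without HS IMF 2 (0.59, adjusted p = 0.0409). The membrane anchor SDHC was at −0.18 ± 0.20 (SE) and the anchor SDHD at −0.01 ± 0.15 (SE).

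In complex III, which hands electrons to cytochrome c, none of 8 genes passed and 2 lay above 0. UQCRH, the hinge protein, had a difference of −0.37 ± 0.16 (SE), adjusted p = 0.168. UQCRB was at 0.24 ± 0.16 (SE), adjusted p = 0.376 through its brighter probe set and at −0.55 ± 0.23 (SE), adjusted p = 0.151 through its dimmer one, in the same limma fit. UQCRQ, the other gene above 0, was at 0.22 ± 0.23 (SE), adjusted p = 0.578.

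In complex IV, 8 of the 10 genes counted as structural lay below 0 and the 2 that passed were both among them. The exceptions were COX5A at 0.27 ± 0.25 (SE) and COX6B2, the testis form of subunit 6B, at 0.21 ± 0.31 (SE). The subunits COX4I1 (−0.11 ± 0.22 (SE)) and COX5B (−0.02 ± 0.19 (SE)) lay near 0. COX4I2, the second form of subunit 4, had no probe set among the members, so its pair with COX4I1 could not be computed.

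In ATP synthase 5 of 16 genes lay above 0 and none passed. ATP5MC1 and ATP5MC3 encode the same mature c subunit of the rotating ring. ATP5MC1 had signals of 1210.4, 1222 and 1331 in JB IMF, 1319, 655 and 4089.7 in HS IMF, 1076, 1056 and 721 in JB SCF and 665, 974 and 1469 in HS SCF, with HS IMF 3 far above the rest, and a difference of 0.61 ± 0.38 (SE), adjusted p = 0.327 in the limma fit. Without HS IMF 3 the difference of ATP5MC1 was 0.23. ATP5MC3 was at −0.28 ± 0.26 (SE), adjusted p = 0.533. ATP5PF, coupling factor 6 of the stalk, was at 0.23 ± 0.15 (SE), adjusted p = 0.335. The catalytic subunit ATP5F1B was at −0.04 ± 0.19 (SE) and its partner ATP5F1A at 0.00 ± 0.25 (SE).

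The genes that are not subunits showed no call either, with differences from −0.16 ± 0.30 (SE) for NDUFAF5 to 0.28 ± 0.30 (SE) for NDUFAF8. ATP5IF1, which blocks ATP hydrolysis by the synthase, was at −0.03 ± 0.17 (SE). Of the 84 genes, 16 had more than 1 tested probe set, and in 7 of them the probe sets differed in sign for the depot difference. Besides COX8B, COX6A1 and UQCRB these were NDUFS3 (0.24 and −0.36), NDUFB2 (0.12 and −0.24), NDUFS1 (-0.001 and 0.12) and the assembly factor NDUFAF3 (−0.02 and 0.06), none of which passed.

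Within the breeds the depot difference of the structural subunits was small in both. In JB their median was 0.09 with 48 of 76 (63.2%) above 0, where all probe sets had a median of −0.06 and 44.0% above 0. In HS it was −0.20 with 17 of 76 (22.4%) above 0, where all probe sets had a median of −0.09 and 44.1% above 0. In JB the depots did not overlap for 17 structural genes higher in IMF, 10 of them of complex I, and for 1 lower, beside 14.1% and 16.2% of all probe sets, after normalization (11 and 1, beside 11.8% and 19.2%, in the deposited signals). Examples are UQCRB (0.58 ± 0.23 (SE), adjusted p = 0.282 in the limma fit) and SDHB (0.43 ± 0.35 (SE), adjusted p = 0.714). In HS 7 structural genes lay lower in IMF without overlap and 0 higher, beside 12.7% and 7.79% of all (11 and 0, beside 15.5% and 4.94%, in the deposited signals). Among them were COX8A (−1.02 ± 0.31 (SE), adjusted p = 0.0937), NDUFB3 (−0.85 ± 0.26 (SE), adjusted p = 0.0942) and NDUFA10 (−1.05 ± 0.42 (SE), adjusted p = 0.181). No structural gene passed within a breed. The sign in HS rests on HS IMF 2, without which the median was 0.06 with 44 of 76 above 0, and without HS SCF 6 it was −0.01 with 38 of 76 above 0. UQCRH passed in HS, downward, only without HS IMF 1. In JB the median was 0.00 without JB SCF 6. Over all probe sets in HS, 303 passed upward and 255 downward, against 235 and 400 in the values as deposited.

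The structural members tended to move together from sample to sample. The mean of the 76 structural genes on the normalized log2 scale was 11.04, 11.30 and 11.04 in JB IMF, 11.25, 10.53 and 11.23 in HS IMF, 11.14, 11.19 and 10.84 in JB SCF, and 10.88, 11.18 and 11.56 in HS SCF. HS IMF 2 was the lowest of the 12 samples and HS SCF 6 the highest. HS IMF 2 held the lowest value of 54 of the 76 genes, and HS SCF 6 the highest of 46.

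**Figure D3:**
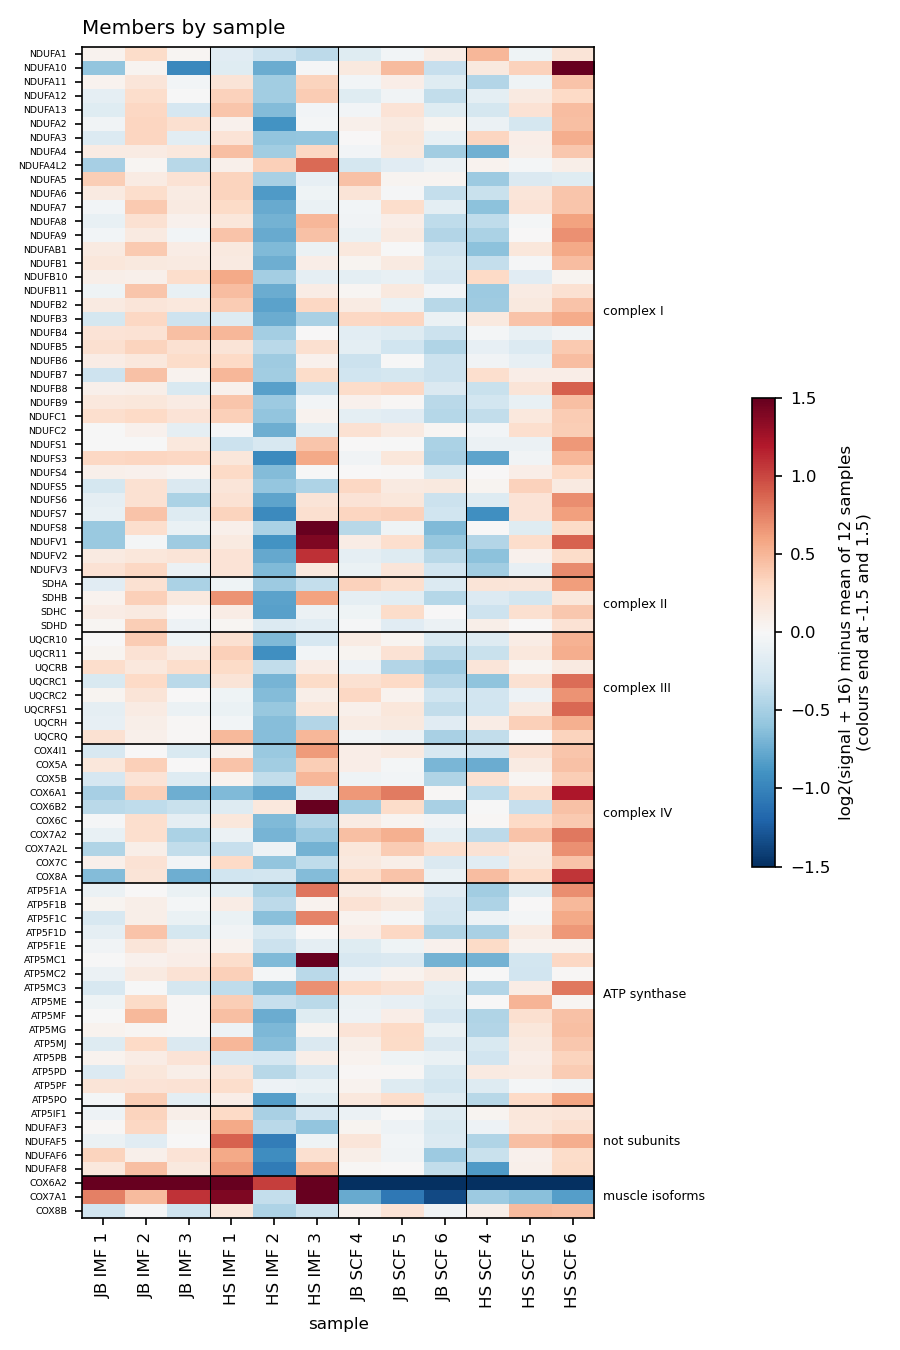
Each of the 84 genes in the 12 samples, as normalized log2(signal + 16) minus the gene's mean over the samples, with colours ending at −1.5 and 1.5. HS IMF 2 is blue and HS SCF 6 red across most structural genes of all complexes, whereas COX6A2 and COX7A1 at the bottom divide by depot.

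Complex I had a mean of sample medians of 11.00 ± 0.18 (SD, n = 3) in JB IMF, 10.81 ± 0.53 in HS IMF, 10.81 ± 0.19 in JB SCF and 10.96 ± 0.42 in HS SCF. Complex II ran from 11.30 ± 0.35 in HS IMF to 11.50 ± 0.22 in HS SCF. Complex III lay at 11.55 ± 0.14 in JB IMF, 11.34 ± 0.38 in HS IMF, 11.36 ± 0.23 in JB SCF and 11.67 ± 0.38 in HS SCF. Complex IV lay at 11.72 ± 0.45, 11.63 ± 0.22, 12.12 ± 0.23 and 12.22 ± 0.44 in the same order of groups, lower in both IMF groups than in both SCF groups. Gene by gene, the median difference between the depots in complex IV was smaller, at −0.14 in JB and −0.45 in HS, and none of its structural genes passed within a breed. ATP synthase lay at 11.88 ± 0.11, 11.68 ± 0.26, 11.69 ± 0.11 and 11.76 ± 0.15. For complexes I, II and III and for ATP synthase the order of the groups had JB IMF or HS SCF at the top and HS IMF or JB SCF at the bottom, and in all 5 complexes neighbours in the order lay closer than the larger of their SDs.

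Over the 12 samples, a structural gene correlated with the mean of the other structural genes at a median r of 0.781, and 35 of 76 (46.1%) had r above 0.8. The other 7724 named genes had a median r of 0.141 with the mean of the structural genes, and 0.958% had r above 0.8. The points share arrays and their normalization, so these values describe these 12 arrays. The highest r were those of UQCR11 (0.944), NDUFA8 (0.942) and NDUFA9 (0.94). The lowest were those of ATP5MC2 (−0.024), NDUFA4L2 (−0.011), a gene known to be induced by low oxygen, NDUFA1 (0.106) and COX7A2L (0.169). Outside the family, the genes most like the mean were SUCLG1, a subunit of succinyl-CoA ligase in the citric acid cycle (r = 0.9318), CHGA (0.9151), ZNF263 (0.9128), GCDH, a mitochondrial dehydrogenase of lysine breakdown (0.9053), and SLC25A26, the mitochondrial carrier of S-adenosylmethionine (0.9038). SUCLG1 had r of 0.9295 within the 6 IMF samples and 0.9353 within the 6 SCF samples.

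**Figure D4:**
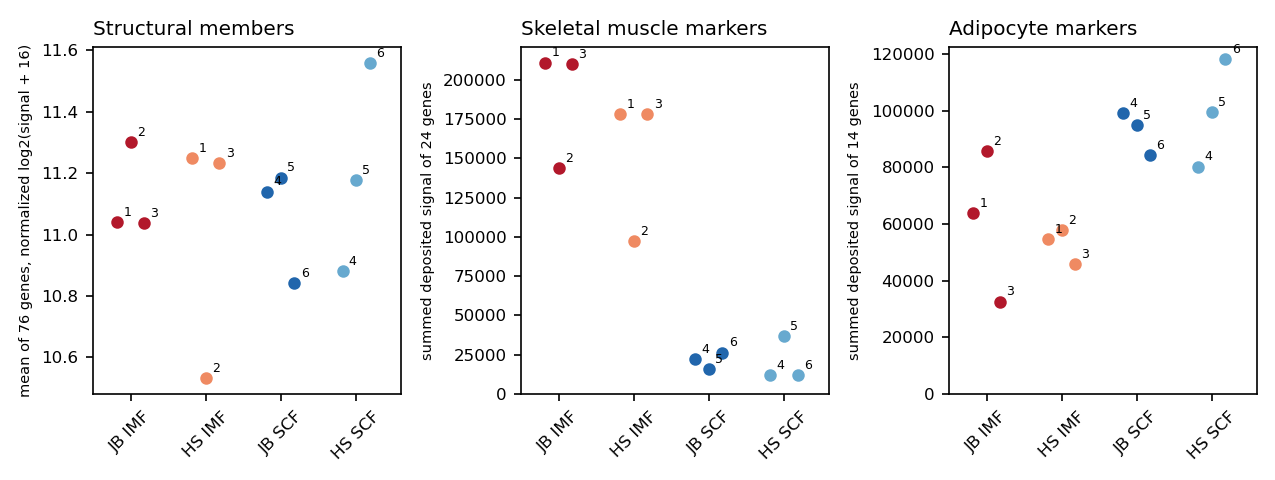
Mean of the 76 structural genes (left, normalized log2), summed deposited signal of 24 skeletal muscle markers (middle) and of 14 adipocyte markers (right), by sample, with replicate numbers beside the points. HS IMF 2 is lowest of the 12 in structural genes and lowest of the IMF samples in muscle markers (97457), and HS SCF 6 is highest in structural genes and in adipocyte markers (118229). Other points go the other way. JB IMF 2 is lowest of JB IMF in muscle markers (143912) but highest there in structural genes. HS SCF 6 is lowest of the 12 in muscle markers (11861), and HS IMF 2 is highest of HS IMF in adipocyte markers (57873).

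The breeds were compared within each depot, as the series design states. In IMF none of the 84 genes passed, where 4 of all 16811 probe sets (0.0238%) did, and 1 member against 10.2% of all probe sets had an unadjusted p under 0.05. Still, 58 of 76 structural genes (76.3%) lay above 0, that is higher in JB, with a median of 0.18, where 57.8% of all probe sets lay above 0 with a median of 0.10. This rested on HS IMF 2, without which 39 of 76 lay above 0 and the median was 0.02. Without HS IMF 3, in contrast, 70 of 76 lay above 0 with a median of 0.25. In the values as deposited the median was 0.48 and that of all probe sets 0.38. By complex the medians were 0.20, 0.20, 0.26, 0.11 and 0.14 in complexes I to IV and ATP synthase.

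The genes with the smallest p in IMF included both directions. NDUFA4L2 had signals of 60, 93.8 and 65.9 in JB and 97, 110.3 and 106 in HS. All JB samples lay below all HS samples, and the difference was −0.72 ± 0.25 (SE), adjusted p = 0.485 in the limma fit. COX6B2 read 79.3, 80 and 86.5 in JB and 92.5, 111 and 224 in HS, again without overlap (−0.95 ± 0.44 (SE), adjusted p = 0.485), and without HS IMF 3 its difference was −0.35. NDUFA1, a small membrane subunit of complex I, read 6964, 6775 and 6293 in JB and 4684, 4153 and 3685 in HS, all JB samples above all HS samples (0.41 ± 0.22 (SE), adjusted p = 0.513). After normalization NDUFB1 was the only other of the 84 genes with all JB above all HS samples, so that 2 were higher and 2 lower without overlap, beside 7.31% and 6.50% of all probe sets. In the deposited signals, where HS IMF 3 has the low median given above, 21 were higher and 2 lower, beside 13.0% and 3.80% of all. UQCRH (0.37 ± 0.23 (SE), adjusted p = 0.558) and NDUFA2 (0.45 ± 0.29 (SE), adjusted p = 0.564) did not overlap between the breeds in the deposited signals but did after normalization, and without HS IMF 2 the difference of NDUFA2 was 0.15.

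NDUFS3, a core subunit of the peripheral arm of complex I, had probe sets that differed in size. Its brighter one read 1473, 1410.5 and 1461 in JB IMF and 1203, 514 and 1032 in HS IMF, a difference of 0.38 ± 0.40 (SE), adjusted p = 0.718 in the limma fit. Its dimmer one read 238, 216 and 273 in JB IMF, 35.5, 36.2 and 7.95 in HS IMF, 192, 137 and 162 in JB SCF and 156, 60.6 and 60.7 in HS SCF. All JB IMF samples were far above all HS IMF samples by that probe set, a difference of 2.57 ± 0.38 (SE) or 5.95-fold that just missed the threshold (limma, adjusted p = 0.0573). In SCF the same probe set differed by 0.72 ± 0.38 (SE), adjusted p = 1, and the difference between the depots in this breed effect was 1.86 ± 0.53 (SE), adjusted p = 0.99. It passed in IMF in 5 of 23 other settings, among them the values as deposited (2.68, adjusted p = 0.04) and the fit without HS SCF 4 (2.57, adjusted p = 0.0144).

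In SCF none of the 84 genes passed in the limma fit and none had an unadjusted p under 0.05, where 1 of all probe sets (0.00595%) passed and 3.56% had an unadjusted p under 0.05. Only 11 of 76 structural genes (14.5%) lay above 0, with a median of −0.15, so that most were lower in JB on average, where 50.4% of all probe sets lay above 0 with a median of 0.00. This rested on HS SCF 6, without which 46 of 76 lay above 0 and the median was 0.03. Without JB SCF 6 31 of 76 lay above 0 (median −0.04), and without HS SCF 4 only 2 of 76 did (median −0.33). By complex the medians were −0.16, −0.17, −0.19, −0.14 and −0.08 in the same order.

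Of the 84 genes, 9 were lower in JB SCF without overlap and 1 was higher, beside 6.20% and 5.81% of all probe sets, after normalization. In the deposited signals 2 were lower, beside 4.16% of all, and NDUFA5 alone was again higher. UQCRB read 3763, 2924 and 2551 in JB and 3703, 3465 and 4519 in HS through its brighter probe set, which overlap in the deposited signals but not after normalization (−0.47 ± 0.23 (SE), adjusted p = 1 in the limma fit). NDUFB7 read 1083, 1078 and 1001 in JB and 1369, 1303 and 1336 in HS (−0.45 ± 0.29 (SE), adjusted p = 1). COX5B differed by −0.40 ± 0.27 (SE), adjusted p = 1 and NDUFA10, which overlapped, by −0.64 ± 0.42 (SE), adjusted p = 1. Without HS SCF 6 the difference of NDUFA10 was −0.16. The 1 gene higher in JB was NDUFA5 through its brightest probe set, at 1976, 1517 and 1430.0 against 878, 1165 and 1219 (0.49 ± 0.25 (SE), adjusted p = 1). The dimmest of its 3 tested probe sets gave −0.58. The middle one was also lower in JB on average, with a mean signal of 589 against 622 in HS. The muscle isoforms differed between the breeds in neither depot past the threshold, at −0.30 ± 0.54 (SE) in IMF for COX6A2 and −0.19 ± 0.45 (SE) for COX7A1, whose 95% intervals were −1.48 to 0.86 and −1.18 to 0.80.

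**Figure D5:**
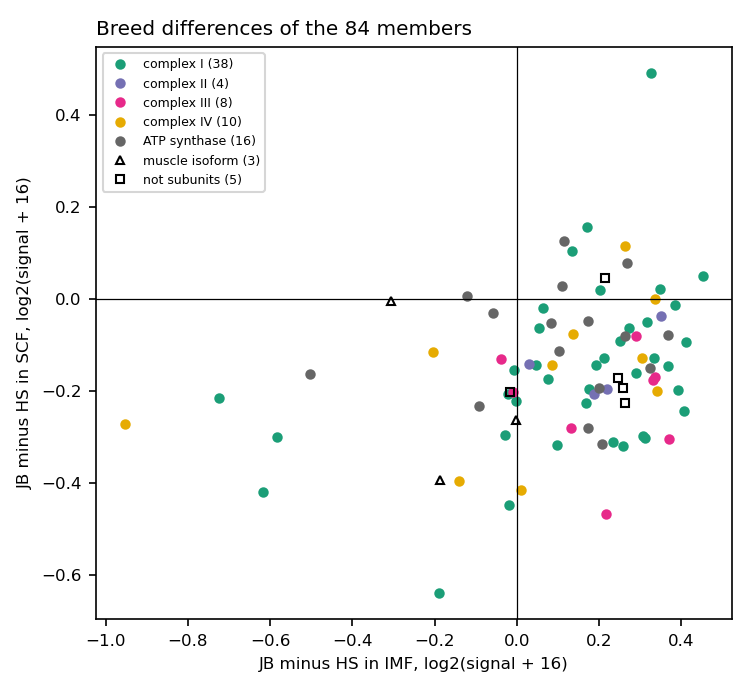
Difference between JB and HS in SCF (vertical) against that in IMF (horizontal) for the 84 genes, in log2(signal + 16), coloured by complex. Of the 76 structural genes 58 lie right of 0 and 11 above 0, and no gene passed in either depot.

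The interaction subtracts the breed difference of SCF from that of IMF and so tests whether the breeds differ unequally in the depots. It passed for none of the 84 genes and for 0 of all 16811 probe sets in the limma fit, of which 359 (2.14%) had an unadjusted p under 0.05. Through their brightest probe sets 0 of the 84 did. The structural genes had a median of 0.34 with 66 of 76 (86.8%) above 0, where all probe sets had a median of 0.05 with 54.2% above 0. The smallest p were those of UQCRB (0.69 ± 0.33 (SE), adjusted p = 0.99), NDUFA1 (0.65 ± 0.31 (SE), adjusted p = 0.99) and UQCRH (0.68 ± 0.33 (SE), adjusted p = 0.99). The median was 0.10 without HS IMF 2 and 0.13 without HS SCF 6. The intervals were wide, since for only 6 of the 76 did the 95% interval lie within 2-fold.

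Other genes of mitochondrial respiration were read from lists, each gene through its brightest probe set, for IMF minus SCF over both breeds. The counts in these lists stand beside 4.66% higher and 6.33% lower of all probe sets tested. Of 9 regulators of mitochondrial biogenesis none passed, with a median of 0.02. PPARGC1A, the coactivator that drives the programme, read 18.4 to 294.4 in IMF and 17.1 to 57.1 in SCF (0.64 ± 0.56 (SE), limma, adjusted p = 0.495). PPRC1, a relative of it, was at 0.75 over both breeds (limma, adjusted p = 0.1135). Within HS, where 3.32% of all probe sets passed, it passed at 1.65 (adjusted p = 0.0467). In JB it was at −0.15 (adjusted p = 0.958), but its interaction of breed and depot did not pass (−1.80, adjusted p = 0.99). Of 85 genes of the mitochondrial ribosome and protein import none passed, with a median of −0.07. Of 25 assembly factors, of which some are members too, 4 were lower in IMF and none higher, with a median of −0.30. The 4 were COX16 (−0.74), COX19 (−0.92) and SCO1 (−0.65), which serve the building of complex IV, and SDHAF1 (−0.77), which serves that of complex II. Of the 25, 19 lay below 0 and 6 above it, among the latter COX10 (0.29) and COX11 (0.11).

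Of 16 citric acid cycle and pyruvate enzymes, 2 were higher and 1 lower, with a median of 0.05. IDH2, the mitochondrial NADP isocitrate dehydrogenase, read 916.2 to 2468 in IMF and 376.8 to 732.2 in SCF, without overlap (1.53 ± 0.25 SE, limma, adjusted p = 0.0023). PDHX, of the pyruvate dehydrogenase complex, was higher by 0.62, and PC, the pyruvate carboxylase that feeds lipid synthesis in fat, was lower at −1.37. CS, citrate synthase, often used as a measure of mitochondrial content, was at 0.55 (adjusted p = 0.0757). Of 15 carriers, pores and mobile electron carriers, 2 were higher. CKMT2, the creatine kinase of muscle mitochondria, read 990.7 to 5018 in IMF and 2.35 to 93 in SCF (6.29 ± 0.49 SE, limma, adjusted p = 7.36e-06). SLC25A4, the muscle ADP/ATP carrier, differed by 1.47 (adjusted p = 0.0191), and its counterpart SLC25A5 by 0.40 (adjusted p = 0.133) through its brighter and −0.97 (adjusted p = 0.0529) through its dimmer probe set.

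Of 9 genes of coenzyme Q, the lipid that carries electrons to complex III, COQ10A was higher by 2.01 and COQ2 lower at −0.77, with a median of −0.05. Of the thermogenic list 3 of 4 genes on the array were tested and none passed. UCP1, the uncoupling protein that defines brown adipocytes, was dim in every sample, at 0.22 to 11.4 in IMF and 3.6 to 31.7 in SCF. CIDEA was lower on average in IMF (−1.57, adjusted p = 0.189), and COX8B, the third tested gene, is given above.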

How the data were processed

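Fat RNA of 12 samples in 4 groups was measured. Per the labels' protocols, biotin-labelled cRNA was hybridized to the Affymetrix bovine array. The authors deposited linear intensity values for 24128 probe sets, with 2303 zeros. Affymetrix Expression Console 1.1 and GCOS 1.1.1 are listed, without a role, per the submitters' processing notes. How signals were summarized and scaled between arrays is not given in the sources used here.

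From the deposited intensities, log2(signal + 16) was computed and quantile normalized. The 112 control probe sets and the 30% dimmest of the other 24016 were left out, which left 16811. A symbol was given to 13292 of the 24016 probe sets, several to 86 and none to 10638, and 13263 matched by Entrez identifier. All 8 dim member probe sets were second probe sets of a gene.

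limma 3.58.1 (lmFit, eBayes, 4 group means, 8 residual and 4.05 prior degrees of freedom) was run in R 4.3.3, and figures were drawn with matplotlib 3.10.9. The procedure was tested on simulated data. Named genes were those past the threshold or with the smallest p in each complex and comparison, the muscle isoforms and their counterparts, and genes whose probe sets differed in sign. Others were named after their values were seen. The members and lists were chosen with earlier results of these data known. Other settings tried were the filter, scaling, pseudocount, variance model, array weights, fitted groups, probe set, block and each sample left out. Following the dimmer probe sets of COX8B, COX6A1 and NDUFS3 through these settings was chosen after seeing the data.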

Additional observations from a re-analysis of the deposited data

Results flagged for a closer look

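For the 30 named genes, 60 sets of 6 samples of a depot were checked. In 7 of them the gap between an extreme sample and its neighbour exceeded 0.625 of the range on the normalized log2 scale. Chance gives such a gap for about 1 in 20 independent sets. These sets share the same arrays, and many of the genes were named for their values. The 7 therefore cannot be set against that rate. All 7 were in IMF, and all were HS samples. The values given are the deposited signals, in which HS IMF 3, with its low array median, lies nearer to HS IMF 2 than after normalization. HS IMF 2 was the low one in 5: NDUFA2 at a signal of 1157, NDUFB2 at 819.9, NDUFS3 at 514.1, SDHC at 1792 and UQCRB at 2568. HS IMF 3 was the high one in the other 2: ATP5MC1 at 4089.7, where the next highest IMF sample read 1331, and COX6B2 at 223.8.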

How the results depend on the processing

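COX6A2 and COX7A1 passed between the depots under all 22 other settings, and the dimmer COX8B probe set under all 21. COX8A missed the threshold in 8 of 22 and COX7A2L in 16 of 22. With 1 probe set per gene, 0 members passed in both breed comparisons and the interaction under every setting. This includes the fit with the replicate block (0 members in each). The dimmer NDUFS3 probe set passed between breeds in IMF in 5 of 23 settings, as given above. The replicate numbers showed no clear pairing of JB with HS samples: the correlations of same-numbered JB and HS samples were −0.28 to 0.12. These correlations cannot show whether an IMF and an SCF sample came from the same steer. The depot tests treat the samples as unpaired, and pairing between depots was not tested. The count of 4 between depots became 10 with array weights (2 higher, 8 lower). Of all 16811 probe sets 1305 were then higher and 1849 lower, against 784 and 1064 without the weights. The count was 2 when HS SCF 5 and JB SCF 6 were both left out, and ranged from 2 to 6 with 1 sample left out. Within JB the count of 1 became 10 with array weights (7 higher, 3 lower). Of all probe sets 1908 were then higher and 2432 lower, against 362 and 154 without the weights. The count in JB became 2 with 50% left out as dim, a trended and robust variance, only the compared groups, or the dimmest probe sets. It was also 2 without both HS IMF 3 and HS SCF 4 (1 to 2 with 1 sample left out). Within HS it became 2 with the dimmest probe sets (1 to 2 with 1 sample left out). The median of structural members was 0.48 for breed in IMF as deposited, and −0.50 for depot in HS without both HS IMF 3 and HS SCF 4. Directions turned with the dimmest probe set for UQCRB (−0.55), COX6A1 (0.87) and COX8B (3.00 over both breeds, 3.12 in JB, 2.88 in HS) between depots and for NDUFA5 (−0.58) between breeds in SCF, and for NDUFS3 between breeds in IMF without HS IMF 2 (−0.056, with a range of −0.056 to 0.701 when 1 sample was left out). Within JB and HS the ratio of COX6A2 to COX6A1 differed by 5.38 and 5.83, COX7A1 to COX7A2 by 2.21 and 2.35, COX8B to COX8A by 0.31 and 0.48, and SLC25A4 to SLC25A5 by 1.37 and 0.78, with exact p of 0.1 to 0.4, where 0.1 is the smallest possible. The COX8B ratio was 0.37 as deposited (exact p = 0.0866), 0.39 with a pseudocount of 1 (exact p = 0.0541) and 0.31 to 0.47 with 1 sample left out, and the SLC25A4 ratio 0.81 to 1.25, or 2.44 with the dimmer SLC25A5 probe set. Apart from the settings that leave out samples or exchange probe sets, the cause was not tested. With no detection calls among the values used, signals under about the pseudocount of 16, such as COX6A2 in SCF and UCP1, have no measured order.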
